A study of Mus musculus with 4 samples.

Results

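Colonic epithelial cells make and remove reactive oxygen and nitrogen species through a small set of enzymes, and 8 of their genes were followed among the 16015 genes listed for 4 RNA sequencing libraries of mouse colonic epithelial cells. They are *Nox1*, *Noxo1*, *Noxa1*, *Cyba*, *Duox2*, *Duoxa2*, *Nos2* and *Gpx2*. All 8 were listed, and all 8 had a mean normalized count of at least 10, the limit above which a gene was compared. The genes were chosen from the oxidant enzymes of the colon with the values of this same comparison already known, so their differences between the groups are given as a description. No p-value is printed for a member, and counts of members passing a threshold stand beside the share of all genes that did, with nothing read from them.

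The libraries came from 2 control mice, labelled WT, and 2 mice labelled Bmal1 cKO. Per the methods of the study, the Bmal1 cKO mice carried *Villin-CreERT2* and floxed *Bmal1* alleles (*Bmal1* fl/fl). *Villin-CreERT2* is a Cre recombinase driven by an epithelial promoter and switched on by tamoxifen, which was injected on 5 consecutive days. *Bmal1* encodes a transcription factor of the circadian clock. The control mice of the study were *Bmal1* fl/fl, so they carried the floxed alleles too, and whether they received tamoxifen is not given in the sources used here. All mice were on a C57BL/6 background and 2 to 4 months old. Both groups had drunk 3% dextran sulfate sodium (DSS), a polysaccharide that injures the colonic epithelium, for 5 days, and epithelial cells were taken on day 7. The material was colonic crypts, which the methods describe as freed with EDTA and scraping, with no sort described. With 2 mice in each group, p-values rest on the spread between single animals and, in limma, on a spread shared across genes. No group without DSS was analysed here, so every difference below is one between genotypes in injured colon.

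Reactive oxygen species in the gut come from a family of membrane enzymes that pass electrons from NADPH to oxygen. NOX1 makes superoxide in colonic epithelial cells and works only with the membrane partner p22phox (*Cyba*), the organiser NOXO1 and the activator NOXA1. DUOX2 releases hydrogen peroxide at the apical surface and needs its maturation factor DUOXA2 to leave the endoplasmic reticulum. NOS2 makes nitric oxide from arginine during inflammation, and the selenoprotein GPX2 reduces hydroperoxides in epithelial cells of the gut.

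In GENCODE on GRCm38, *Nox1* lies at chrX:134086421-134221956 (minus strand), *Noxo1* at chr17:24696234-24700529 (plus), *Noxa1* at chr2:25085667-25095149 (minus), *Cyba* at chr8:122424776-122432930 (minus), *Duox2* at chr2:122279247-122298449 (minus), *Duoxa2* at chr2:122298900-122302885 (plus), *Nos2* at chr11:78920787-78960254 (plus) and *Gpx2* at chr12:76792333-76795554 (minus).

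The 250 bases before the start of 4 members are shown, since *Nox1* was the member that stood higher in Bmal1 cKO mice, *Noxa1* is its activator, *Gpx2* was the member with the highest level, and the *Duoxa2* window lies between *Duox2* and *Duoxa2*, which are transcribed away from each other. The sequences were taken from RefSeq on GRCm38.p6 and are written 5′ to 3′ on the strand of the gene, from chrX:134111855-134112104 (minus strand) for *Nox1*, chr2:25095206-25095455 (minus) for *Noxa1*, chr2:122298650-122298899 (plus) for *Duoxa2* and chr12:76795555-76795804 (minus) for *Gpx2*. The *Nox1* window lies inside the annotated span of *Nox1*, outside its annotated exons. Capitals mark matches to the letters GGGNNNNNCC, a loose form of the NF-κB motif, on either strand.
Nox1: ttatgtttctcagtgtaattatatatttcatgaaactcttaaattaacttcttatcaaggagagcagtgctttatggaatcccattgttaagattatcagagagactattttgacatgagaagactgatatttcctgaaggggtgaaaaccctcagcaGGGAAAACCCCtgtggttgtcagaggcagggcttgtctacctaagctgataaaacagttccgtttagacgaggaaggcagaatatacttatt
Noxa1: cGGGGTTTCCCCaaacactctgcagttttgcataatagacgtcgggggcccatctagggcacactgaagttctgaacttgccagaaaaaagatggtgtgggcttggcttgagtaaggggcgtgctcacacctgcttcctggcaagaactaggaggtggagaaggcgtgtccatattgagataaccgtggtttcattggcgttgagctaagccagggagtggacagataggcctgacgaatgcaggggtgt
Duoxa2: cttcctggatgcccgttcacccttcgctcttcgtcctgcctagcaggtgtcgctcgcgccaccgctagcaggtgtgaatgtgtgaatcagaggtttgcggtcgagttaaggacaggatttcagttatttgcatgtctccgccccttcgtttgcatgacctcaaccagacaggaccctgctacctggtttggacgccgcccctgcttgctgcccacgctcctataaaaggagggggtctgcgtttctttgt
Gpx2: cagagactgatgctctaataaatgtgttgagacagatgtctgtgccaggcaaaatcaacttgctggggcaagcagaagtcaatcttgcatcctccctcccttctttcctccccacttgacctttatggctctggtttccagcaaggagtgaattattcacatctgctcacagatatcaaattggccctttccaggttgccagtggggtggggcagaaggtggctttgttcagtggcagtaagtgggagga
The window of *Nox1* held 38% G and C, against 56.4% in that of *Duoxa2*. The E-box CACGTG, the letters bound by BMAL1 with its partner CLOCK, was in none of the 7 members with a RefSeq window (all but *Nos2*), and 6.02% of all 32851 windows of the same length held it. TTCNNNGAA, the letters bound by STAT factors, was likewise in none of the 7, against 7.02% of all windows. GGGNNNNNCC was found in 4 of the 7 (*Nox1*, *Noxo1*, *Noxa1* and *Cyba*), against 45.8% of all windows. In *Nox1* and in *Noxa1* both matches overlap in 1 run. A match to letters is not a binding site, and the absence of one says only that these letters are not in these 250 bases.

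The values are normalized counts, that is, reads on a gene scaled by a size factor for each library. Reads on listed genes numbered 10312791 to 14156639 per library. The targeted gene, listed as *Arntl*, measured 358 and 342 in controls against 341 and 289 in Bmal1 cKO animals (normalized counts, adjusted p = 0.389 from limma). Both Bmal1 cKO libraries were thus below the controls, by a narrow margin that did not pass the test. Counts over a whole gene do not show whether its floxed part was removed. The study reports, from immunoblots and immunohistochemistry, that its knockout mice had lost *Bmal1* expression in the intestinal epithelium. The directions below are those of the libraries labelled Bmal1 cKO. The epithelial marker list summed to 122579 and 141138 normalized counts in controls against 120899 and 126903 in Bmal1 cKO animals, with 3 of its 10 markers lower (*Krt18*, *Cdx1* and *Cdx2*) and 1 higher (*Krt20*) by limma. Markers of other cells also differed. All 8 tested neutrophil markers, 9 of 10 macrophage markers, 6 of 8 fibroblast and smooth muscle markers, 5 of 5 endothelial markers and 3 of 8 lymphocyte markers passed in limma (adjusted p under 0.05) as lower, and none as higher, where 27.7% of all tested genes were lower. Their summed levels were 9206 and 26329 against 3572 and 2883 (neutrophil), 7282 and 2412 against 438 and 638 (macrophage), 14167 and 2999 against 416 and 465 (fibroblast), 1459 and 349 against 59.7 and 79.7 (endothelium) and 8798 and 261 against 186 and 372 (lymphocyte). The lymphocyte sums overlapped between the groups, with control mouse 1 far above the other 3 libraries. The neutrophil markers *Ngp* and *Camp* were at 0 in both Bmal1 cKO mice. In such bulk samples fewer cells of a type and less RNA per cell cannot be told apart, and the part of these cells in the members' differences was not tested.

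A second feature of the libraries touched every member. Across the 13975 tested genes with a known transcript, the log2 fold change followed the GC content of the transcript, with a Spearman's rho of -0.62, which describes these libraries, since genes are not independent replicates. In 10 classes of equal size, the median log2 fold change went from 1.16 in the class with the least GC to -1.37 in the class with the most. *Nox1*, with 43.7% GC, lies in the second class, whose median was 0.80. The other members have 53.8% (*Gpx2*) to 59.3% GC (*Cyba*) and lie in the 3 classes with the most GC, whose medians were -0.61, -0.82 and -1.37. Log2 fold changes are therefore given as computed and after each library had been corrected by loess for GC content and transcript length. The correction was made in 2 versions. The first, by least squares, moved the median of all genes to 0.24. The second, a robust fit with a median of -0.032, was added after the values of the first, those of the members included, had been seen. Neither is a reference for the other, so corrected values are given for the robust fit and then for the least-squares fit, and a direction that differs between them is not settled. Whether the trend comes from the libraries or the cells was not tested.

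**Figure D1:**
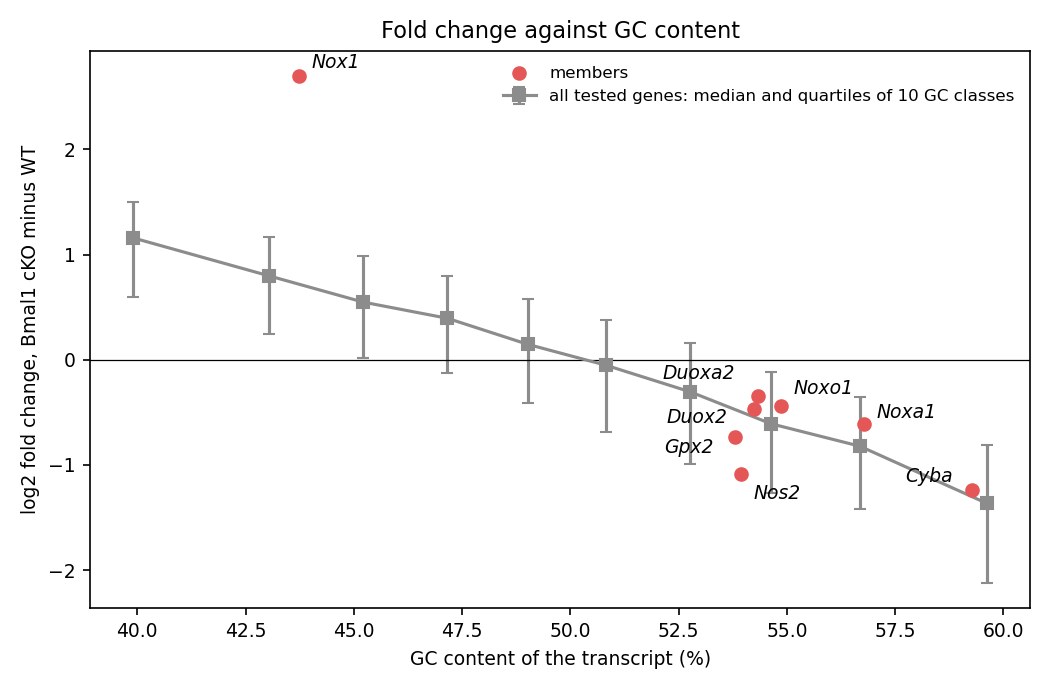
Log2 fold change (Bmal1 cKO minus WT) against the GC content of the transcript in percent, with the 8 members as red points and, for all tested genes, the median and quartiles in 10 classes of GC content as grey squares and bars. *Nox1* lies 1.90 above the median of its class, and the other 7 members lie within 0.48 of the medians of theirs.

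*Nox1* was the member that differed most. It measured 438 and 396 in controls against 2640.4 and 2764 in Bmal1 cKO animals (normalized counts). Both Bmal1 cKO libraries were above both control libraries, and the lower of them was 6.03-fold above the higher control. The means were 417 ± 29.7 and 2702 ± 87.5 (SD, n = 2 mice each), which gave a log2 fold change of 2.70 (standard error 0.10). Of the 13983 tested genes, 44 had a larger log2 fold change. Of the 1397 genes in its class of GC content, 12 did.

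After the correction the log2 fold change of *Nox1* was 2.002 (robust) and 2.22 (least squares), and on leaving out single mice it lay between 2.62 and 2.77 without the correction. Of its 3307 exon bases in the GENCODE annotation, 399 also belong to *Cstf2* on the opposite strand. *Cstf2* itself measured 1219.9 and 1387 in controls against 2575 and 2688 in Bmal1 cKO animals (normalized counts). Whether reads were assigned by strand is not given in the sources used here, so reads in the shared bases cannot be given to either gene.

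The partners of NOX1 had lower means in the Bmal1 cKO mice. *Noxa1*, the activator, measured 450.3 and 508 in controls against 285 and 343 in Bmal1 cKO animals (normalized counts). The groups did not overlap, with the closest 2 libraries 1.31-fold apart, and the log2 fold change was -0.61 (standard error 0.15). After the correction it was 0.18 (robust) and 0.46 (least squares), so the direction of *Noxa1* rests on the treatment of GC content. *Cyba*, which also serves the oxidase of phagocytes, measured 942 and 578 in controls against 379.6 and 257 in Bmal1 cKO animals (normalized counts). Its control mice differed 1.63-fold between themselves. The log2 fold change was -1.24 (standard error 0.29), and -0.040 (robust) and 0.16 (least squares) after the correction.

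*Noxo1*, the organiser, was the member with the lowest level. It measured 30.4 and 55.9 in controls against 21.6 and 41.9 in Bmal1 cKO animals (normalized counts), from 36, 66, 21 and 31 reads. The groups overlapped, and the mice of each group differed 1.84-fold and 1.94-fold. The log2 fold change was -0.44 (standard error 0.52), and 0.10 (robust) and 0.42 (least squares) after the correction. With Bmal1 cKO mouse 1 left out it was 0.021, so neither its direction nor its size was settled at this depth. Of the 3013 exon bases of *Noxo1*, 2122 also belong to *Tbl3* on the opposite strand, which had 446 to 614 normalized counts in the 4 libraries, so the reads of *Noxo1* are uncertain.

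Ratios of 2 genes within a library do not depend on how libraries are scaled. Per kilobase of transcript, *Nox1* was at 0.613 and 0.491 times the level of *Noxa1* in controls against 5.85 and 5.08 times that level in Bmal1 cKO animals. Against *Cyba* the ratio was 0.135 and 0.199 in controls against 2.02 and 3.12 in Bmal1 cKO animals. By contrast, *Noxa1* was at 20.5 and 12.6 times the level of *Noxo1* in controls against 18.3 and 11.3 times in Bmal1 cKO animals. The catalytic subunit thus went from below its activator and its membrane partner, per length, to above them, while the ratio of the activator to the organiser overlapped between the groups. These ratios were not corrected for GC content, which is lower in *Nox1* than in its partners.

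**Figure D2:**
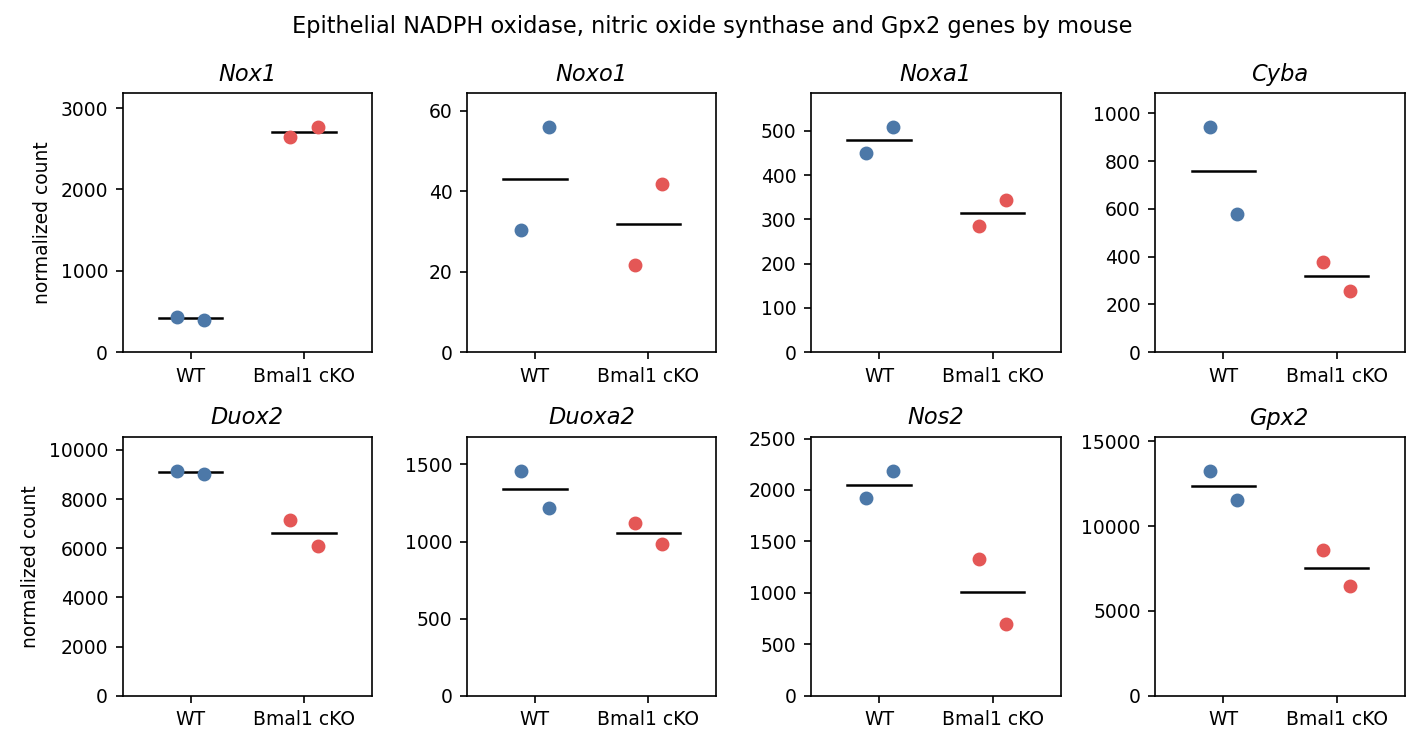
Normalized counts of the 8 members (vertical axis of each panel, from 0) in the 2 control mice (blue) and the 2 Bmal1 cKO mice (red), with group means as black lines. *Nox1* is the member with Bmal1 cKO mice above the controls, *Noxo1* overlaps, and the other 6 lie below the controls in both Bmal1 cKO mice.

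*Duox2* was among the most abundant transcripts, above 98.8% of the tested genes in mean normalized count. It measured 9150.3 and 9033 in controls against 7136 and 6089 in Bmal1 cKO animals (normalized counts). The control mice were nearly equal, 1.01-fold apart, and both Bmal1 cKO mice were lower. The means were 9092 ± 83.1 and 6613 ± 740.4 (SD, n = 2 each), which gave a log2 fold change of -0.46 (standard error 0.12). It lay 0.14 above the median of its class of GC content, and after the correction the log2 fold change was -0.011 (robust) and 0.36 (least squares).

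*Duoxa2*, the maturation factor, measured 1459 and 1219 in controls against 1122 and 983 in Bmal1 cKO animals (normalized counts). The groups did not overlap, but the closest libraries were 1.09-fold apart, less than the 1.197-fold between the control mice. The log2 fold change was -0.34 (standard error 0.13), and 0.12 (robust) and 0.40 (least squares) after the correction. The ratio of *Duox2* to *Duoxa2* per kilobase was 1.63 and 1.93 in controls against 1.66 and 1.61 in Bmal1 cKO animals, so the pair kept overlapping ratios across the genotypes. *Duoxa2* shares 682 of its 1592 exon bases with *Duoxa1* on the opposite strand. *Duoxa1*, the partner of DUOX1, had 19.5 to 31.3 normalized counts in the 4 libraries.

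The make-up of the catalytic oxidases differed between the genotypes. Per kilobase of transcript, *Nox1*, *Duox2*, *Duox1* and *Cybb*, the oxidase of phagocytes, summed to 1763 and 1681 in controls against 2213 and 2104 in Bmal1 cKO animals. *Nox1* took 9.68% and 9.18% of this sum in controls against 46.5% and 51.3% in Bmal1 cKO animals. *Duox2* took 84.9% and 87.9% in controls against 52.8% and 47.4% in Bmal1 cKO animals. *Nox1* was thus at about the level of *Duox2* in Bmal1 cKO mice, with ratios of 0.882 and 1.08, and at 0.114 and 0.104 of it in the control mice. Of the remaining catalytic genes *Nox3* and *Nox4* were not among the listed genes, and *Duox1* had 6 to 11 reads per library. These shares were not corrected for GC content.

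**Figure D3:**
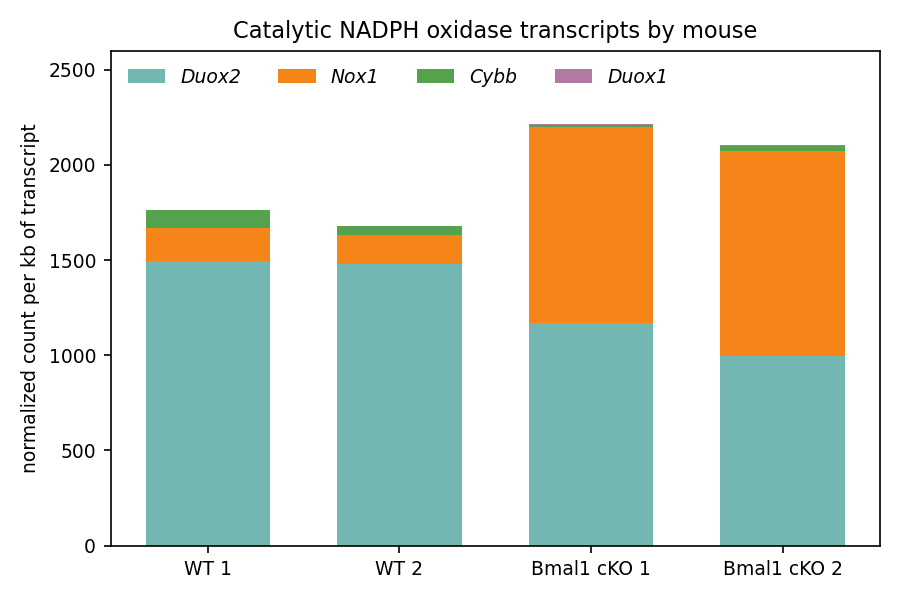
Stacked normalized counts per kilobase of transcript of the catalytic NADPH oxidase genes in each of the 4 mice. *Nox1* (orange) makes up 9.68% and 9.18% of the bars of the control mice and 46.5% and 51.3% of those of the Bmal1 cKO mice, and *Duox1* is too low to be seen.

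*Nos2*, the inducible nitric oxide synthase, measured 1919 and 2187 in controls against 1325 and 699 in Bmal1 cKO animals (normalized counts). Both Bmal1 cKO mice were below both control mice, but they differed 1.90-fold between themselves, against 1.14-fold between the control mice. The means were 2053 ± 189.8 and 1012 ± 443 (SD, n = 2 each), which gave a log2 fold change of -1.09 (standard error 0.30). After the correction it was -0.65 (robust) and -0.34 (least squares), the most negative of the 8 in both. Without Bmal1 cKO mouse 2, the log2 fold change was -0.63, and without Bmal1 cKO mouse 1 it was -1.55.

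*Gpx2* had the highest level of the members, with 13259.5 and 11512 normalized counts in controls against 8587 and 6443 in Bmal1 cKO animals. Its mean was above that of 99.2% of the tested genes. The groups did not overlap, with the closest libraries 1.34-fold apart. The log2 fold change was -0.73 (standard error 0.17), and -0.31 (robust) and -0.074 (least squares) after the correction, and on leaving out single mice it lay between -0.94 and -0.52 without the correction.

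Over all members, 7 of 8 had a negative log2 fold change, and their median was -0.54, against -0.04 over all tested genes. By limma, 5 of the 8 were lower with an adjusted p under 0.05, where 27.7% of all tested genes were, and 1 was higher, where 29.0% were. The libraries of the groups did not overlap for 7 members, where they did not for 82.1% of the tested genes. Since the members were chosen from this comparison, nothing is read from these counts. After the robust correction 4 members were below 0 and 4 above, with a median of 0.044, and after the least-squares correction 2 were below 0 and 6 above, with a median of 0.38, against medians of all genes of -0.032 and 0.24. *Cyba* and *Duox2* changed sign between the versions. In both versions limma called 1 member higher (*Nox1*) and 0 lower, where 17.0% and 17.1% of the genes with a known transcript were higher and lower in the robust version and 28.6% and 11.2% in the least-squares version. At an unadjusted p under 0.05, 0 members were lower and 1 higher in the robust version, where 24.4% and 22.9% of the genes were, and 0 were lower and 4 higher in the least-squares version, where 15.5% and 35.6% were.

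The count of 5 lower members rests on all 4 libraries. Without the correction it fell when any 1 mouse was left out, as did the count of lower genes over the whole table. Such fits have 1 mouse in a group, so a call can be lost without a smaller difference, and nothing is read from the fall. The log2 fold change of *Nox1* lay between 2.62 and 2.77 in these 4 fits.

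**Figure D4:**
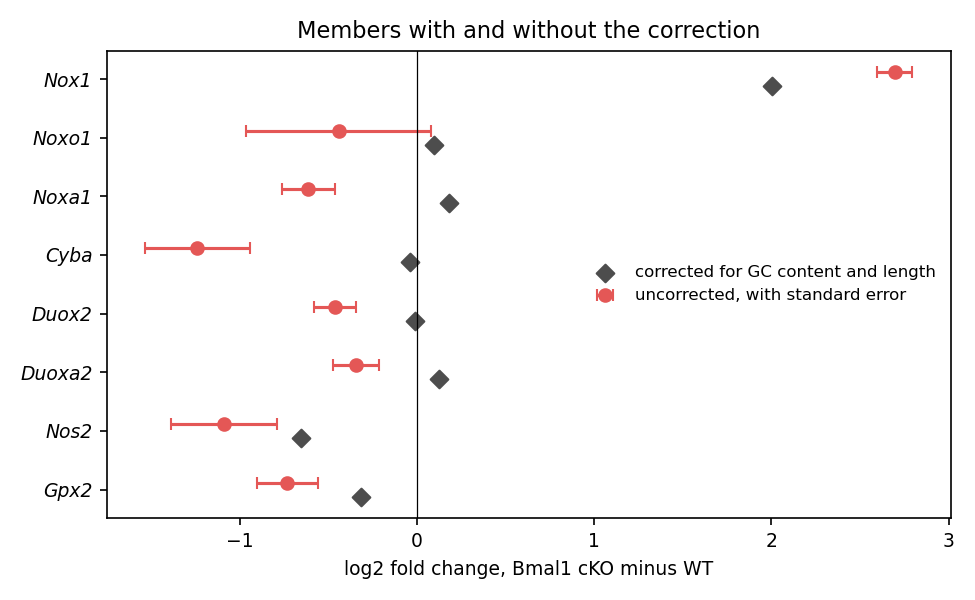
Log2 fold changes (Bmal1 cKO minus WT) of the 8 members as computed, with standard errors (red circles), and after the robust correction for GC content and length (grey diamonds). *Nox1* goes from 2.70 to 2.002, and the other 7 go from between -1.24 and -0.34 to between -0.65 and 0.18.

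*Nox1* and *Duox2* were also set beside the genes most like them. Among 9981 other genes with a mean of at least 100, the 3 whose log2 levels, centred over the 4 libraries, lay closest to those of *Nox1* were *Slc6a14*, *Ccl28* and *Ccdc39*, at Euclidean distances of 0.18, 0.20 and 0.24. *Slc6a14* encodes an amino acid transporter and *Ccl28* an epithelial chemokine that attracts plasma cells making IgA. *Slc6a14* measured 3670 and 3188 in controls against 19400.4 and 24107 in Bmal1 cKO animals (normalized counts). The 3 closest to *Duox2* were *Elovl1*, *Unc45a* and *Aurkb*, at distances of 0.013, 0.034 and 0.038. With 4 libraries in 2 groups, closeness rests mainly on a like difference between the groups.

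The other genes of these pathways were taken from lists that hold none of the members. Of 66 listed genes 64 were tested, and limma put 30 lower and 12 higher at an adjusted p under 0.05, where 27.7% and 29.0% of all tested genes were. After the correction 18 were lower and 14 higher (robust) or 13 and 22 (least squares), where 17.1% and 17.0% (robust) or 11.2% and 28.6% (least squares) of all genes with a known transcript were, shares that also bear on the corrected counts of each list below, and the call of 17 of the 64 genes differed between the versions. The median log2 fold change over the 64 genes was -0.47 without the correction. Below, corrected values of these genes are from the robust version, and each named gene whose call differs in the other version is given with both.

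Of the phagocyte oxidase, *Cybb*, *Ncf1*, *Ncf4* and *Rac2* fell, as did *Nrros*, which regulates that oxidase. Of 9 tested genes in the list of NADPH oxidase subunits, limma put 6 lower and 0 higher at an adjusted p under 0.05, where 27.7% and 29.0% of all tested genes were, against 6 and 0 (robust) or 6 and 1 (least squares) after the correction. *Ncf1* (p47phox), the organiser of that oxidase, went from 239 ± 97.9 to 4.599 ± 0.769 normalized counts (SD, n = 2 each), which gave a log2 fold change of -5.37 (adjusted p = 6.95e-04 from limma). *Ncf4* (p40phox) had a log2 fold change of -3.77 and *Rac2*, the GTPase of blood cells, one of -5.16 (adjusted p = 9.43e-04 and 5.33e-04 from limma). The catalytic subunit *Cybb* measured 445 and 223 in controls against 67.9 and 124 in Bmal1 cKO animals (normalized counts), which gave a log2 fold change of -1.77 (adjusted p = 0.0188 from limma). The neutrophil and macrophage markers, given above, were lower in the same libraries, and their part was not tested.

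Subunits of wider use did not pass the test. *Rac1*, the GTPase found in nearly all cells, had 6681 ± 12.1 and 7409.5 ± 278.5 normalized counts (SD, n = 2 each; adjusted p = 0.232 from limma). *Cybc1*, a chaperone of the heterodimer of *Cybb* and *Cyba*, had 388 and 264 in controls against 462 and 443 in Bmal1 cKO animals (adjusted p = 0.0871 from limma, 0.0737 after the robust and 0.0126 after the least-squares correction). *Duoxa1* had a log2 fold change of -0.41 (adjusted p = 0.442 from limma).

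Around nitric oxide synthesis, 7 of 17 tested genes were lower and 3 higher by limma, where 27.7% and 29.0% of all tested genes were, against 2 and 4 (robust) or 0 and 6 (least squares) after the correction. The 3 higher genes were *Pts* and *Gch1*, which make the NOS cofactor tetrahydrobiopterin, and *Ddah1*, which degrades a methylarginine that inhibits NOS enzymes. *Gch1*, the first enzyme of cofactor synthesis, measured 469 and 474 in controls against 695 and 737 in Bmal1 cKO animals (normalized counts), which gave a log2 fold change of 0.60 (adjusted p = 0.00571 from limma) and of 0.36 after the correction (adjusted p = 0.0437). *Pts* rose by 1.01 and *Ddah1* by 0.66 on the log2 scale (adjusted p = 0.00113 and 0.00241 from limma), and by 0.44 and 0.51 after the correction. *Nos2* itself went the other way in the same libraries, so that its ratio to *Gch1* per kilobase was 2.71 and 3.05 in controls against 1.26 and 0.628 in Bmal1 cKO animals. This ratio was not corrected for GC content.

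Among the lower genes, *Spr*, the last enzyme of cofactor synthesis, had a log2 fold change of -1.10 (adjusted p = 0.00117 from limma), but of 0.034 after the correction. *Nosip*, a protein that binds NOS enzymes, and *Qdpr*, which recycles the cofactor, fell by 0.79 and 0.63 on the log2 scale and stood at 0.043 and -0.35 after the correction (adjusted p = 0.870 and 0.200 from limma). *Slc7a1*, a carrier of arginine, had a log2 fold change of -0.56 (adjusted p = 0.00440 from limma), of -0.49 after the robust correction (adjusted p = 0.0145) and of -0.13 after the least-squares correction (adjusted p = 0.371). The endothelial synthase *Nos3* was covered by 56 and 13 reads in controls against 1 and 0 in Bmal1 cKO animals.

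*Ass1*, which rebuilds arginine from citrulline, had 594 and 628 in controls against 711 and 516 in Bmal1 cKO animals (normalized counts), so the groups overlapped. Its corrected log2 fold change was 0.51 (robust, adjusted p = 0.0658 from limma) and 0.80 (least squares, adjusted p = 0.0192).

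Of 23 tested genes of proteins that remove peroxide and superoxide, 9 were lower and 6 higher by limma, where 27.7% and 29.0% of all tested genes were, or 5 and 6 (robust) or 4 and 8 (least squares) after the correction. Of the 6 peroxiredoxins, which reduce peroxides with thioredoxin, 3 were higher, 1 was lower and 2 did not pass. The higher ones had log2 fold changes of 0.83 for *Prdx3*, 0.71 for *Prdx2* and 0.67 for *Prdx4* (adjusted p = 0.00197, 0.00238 and 0.0230 from limma). These 3 also passed after the correction (0.34, 0.69 and 0.74), as did *Txn1*, which encodes thioredoxin (0.75 and 0.48 after the correction). *Prdx5* was lower without the correction, with a log2 fold change of -0.98, and stood at 0.034 after it. *Prdx1* and *Prdx6* did not pass (0.21 and 0.14, adjusted p = 0.132 and 0.639 from limma), but *Prdx1* had -0.58 after the robust correction (adjusted p = 0.0144) and -0.36 after the least-squares correction (adjusted p = 0.0599). *Gclm*, a subunit of the first enzyme of glutathione synthesis, had the largest log2 fold change among the higher genes of the list, 1.32 (adjusted p = 6.44e-04 from limma), but 0.33 after the robust correction (adjusted p = 0.0663) and 0.58 after the least-squares correction (adjusted p = 0.0128). *Prdx1*, *Prdx2*, *Prdx4*, *Prdx5*, *Prdx6*, *Slc7a1*, *Nrros*, *Rac1*, *Cybc1* and, below, *Ifngr2* and *Il17rc* were named after their values were seen.

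The relatives of *Gpx2* had lower counts in Bmal1 cKO mice. *Gpx1*, the widely expressed glutathione peroxidase, measured 5244 and 4417 in controls against 3077 and 2551 in Bmal1 cKO animals (normalized counts), which gave a log2 fold change of -0.78 (adjusted p = 0.00653 from limma). *Gpx4*, which reduces lipid peroxides, had a log2 fold change of -1.14 (adjusted p = 0.00318 from limma). After the correction *Gpx1* stood at 0.075 and *Gpx4*, with a high GC content, at 0.19 (adjusted p = 0.674 and 0.347 from limma). *Gpx3*, a secreted peroxidase, measured 2093 and 241 in controls against 59.7 and 32.4 in Bmal1 cKO animals (normalized counts, adjusted p = 0.0197 from limma, 0.0531 after the robust and 0.0454 after the least-squares correction). The summed macrophage, lymphocyte, fibroblast and endothelial markers were also higher in control mouse 1 than in control mouse 2, and the neutrophil markers were not. The part of these cells in *Gpx3* was not tested.

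*Cat* (catalase) rose by 0.47 on the log2 scale (adjusted p = 0.0170 from limma), and had 0.22 after the robust correction (adjusted p = 0.164) and 0.48 after the least-squares correction (adjusted p = 0.0286). *Sod2*, the mitochondrial superoxide dismutase, measured 1484 and 1362 in controls against 1165 and 1526 in Bmal1 cKO animals (normalized counts), so the groups overlapped (adjusted p = 0.618 from limma), but its corrected log2 fold change was -1.07 (adjusted p = 0.00719). The secreted *Sod3* was covered by 1259 and 106 reads in controls against 1 and 2 in Bmal1 cKO animals.

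Of the haem peroxidases, which use hydrogen peroxide to oxidise halides and thiocyanate, *Mpo* and *Epx* were not among the listed genes. *Lpo* (lactoperoxidase) measured 1447 and 1636 in controls against 284 and 211 in Bmal1 cKO animals (normalized counts), which gave a log2 fold change of -2.65 (adjusted p = 5.33e-04 from limma) and of -2.27 after the correction (adjusted p = 0.00293). The control mice thus held 6.27-fold more on the log2(value + 1) scale. *Pxdn*, a peroxidase of the extracellular matrix, measured 184 and 44.9 in controls against 12.3 and 14.9 in Bmal1 cKO animals (normalized counts), which gave a log2 fold change of -2.66 (adjusted p = 0.0245 from limma) that had an adjusted p of 0.0516 after the robust and 0.0488 after the least-squares correction.

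**Figure D5:**
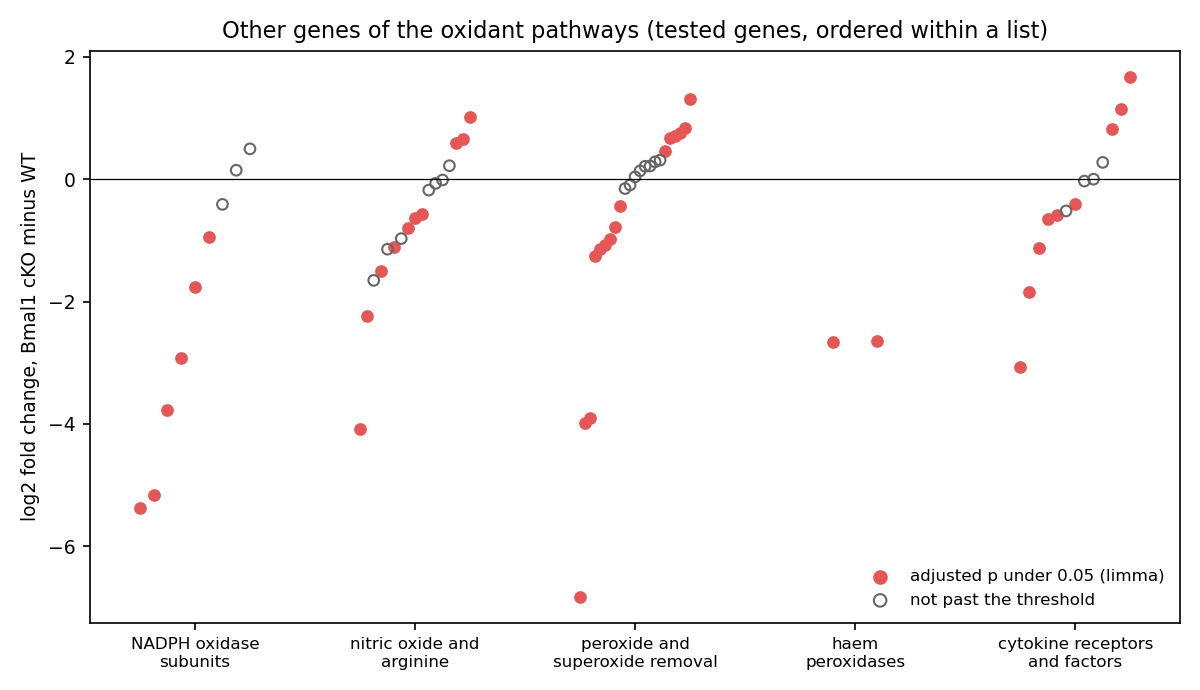
Log2 fold changes (Bmal1 cKO minus WT) of the 64 tested genes of the 5 pathway lists, ordered within each list, with filled red points for an adjusted p under 0.05 from limma without correction for GC content. The subunits of the phagocyte oxidase lie lowest in the first list, and the removal enzymes lie on both sides of 0.

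Of the receptors and factors known to act on *Nox1*, *Duox2* or *Nos2* transcription, 6 of 13 tested genes were lower and 3 higher by limma, where 27.7% and 29.0% of all tested genes were, or 4 and 4 (robust) or 1 and 7 (least squares) after the correction. *Ifngr1*, a chain of the interferon gamma receptor, rose by 0.83 on the log2 scale (adjusted p = 0.00135 from limma) and by 0.55 after the correction. *Ifngr2*, its other chain, had a log2 fold change of -0.40 (adjusted p = 0.0147 from limma). After the correction *Ifngr2* had -0.51 (robust, adjusted p = 0.0115 from limma) or -0.24 (least squares, adjusted p = 0.148). *Hif1a* rose by 1.16 (adjusted p = 0.00489 from limma) but had 0.12 after the correction.

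*Rela*, a subunit of NF-κB, fell by 1.85 on the log2 scale (adjusted p = 5.33e-04 from limma) and had -0.70 after the robust correction (adjusted p = 0.00908) and -0.41 after the least-squares correction (adjusted p = 0.0563). *Il17ra*, a chain of the interleukin-17 receptor, measured 451 and 513 in controls against 219 and 223 in Bmal1 cKO animals (normalized counts), which gave a log2 fold change of -1.12 (adjusted p = 0.00181 from limma). After the correction it had a log2 fold change of -0.87 (robust, adjusted p = 0.00904 from limma) or -0.50 (least squares, adjusted p = 0.0765). *Il17rc*, another chain of that receptor, had -0.52 without the correction (adjusted p = 0.0713 from limma). With it *Il17rc* had 1.08 (robust, adjusted p = 0.0103 from limma) or 1.34 (least squares, adjusted p = 0.00814). *Il10ra*, a receptor chain found mainly on leukocytes, had a log2 fold change of -3.07 (adjusted p = 0.00194 from limma).

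The crypt stem cell and progenitor markers, of which 5 of 9 tested were higher and 2 lower by limma (29.0% and 27.7% of all tested genes were), summed to 18038 and 19619 normalized counts in controls against 37615 and 36694 in Bmal1 cKO animals. Most of the difference between these sums was in *Slc12a2*, with a mean of 6002 in controls and 18401 in Bmal1 cKO animals. The other higher markers were *Lgr5* (log2 fold change 2.79), *Smoc2* (1.97), *Top2a* (0.92) and *Ccnb1* (0.87). *Olfm4* and *Ascl2* were lower (-3.14 and -1.91), and *Axin2* and *Mki67* did not pass (adjusted p = 0.0720 and 0.953 from limma). After the robust correction, where 17.0% of all genes with a known transcript were higher and 17.1% lower, the 3 higher markers were *Lgr5* (2.37), *Smoc2* (2.09) and *Slc12a2* (0.85), the 2 lower ones were *Olfm4* (-3.99) and *Mki67* (-0.46), and the median log2 fold change of the list was 0.085. The surface colonocyte markers, of which 2 of 9 were higher and 1 lower (against the same shares), summed to 104857 and 145351 against 112433 and 124563. The part of such cells in the level of *Nox1* was not tested.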

How the data were processed

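Colonic epithelial cells of 2 control and 2 Bmal1 cKO mice were sequenced. The library kit named in the labels differs from that in the methods. Per the labels, reads were aligned to GRCm38 with STAR and normalized with DESeq2, and neither counter nor annotation release is given in the sources used here. The values that the authors deposited are a signal: reads per gene after scaling by a factor for each library. The authors' columns of mean, fold change and p-values were not used. Within a tolerance of 0.01 of a read, 100% of the values were whole reads.

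Fold changes are on the log2(value + 1) scale and so are understated for low genes. All 13983 genes averaging 10 or more normalized counts entered 1 limma 3.58.1 fit (trend option, two-sided test), and p was adjusted by Benjamini-Hochberg over the whole table (threshold 0.05). On uncorrected recovered reads, edgeR 4.0.16 and DESeq2 1.42.0 called 3812 and 3861, and 3803 and 3719 genes lower and higher. GC content and length are those of the longest coding transcript in GENCODE M21, and each library was corrected for them by loess with a span of 0.3. The plan named loess without its family. Least squares was run first, and the robust (symmetric) fit was added once its values, members included, had been seen, because the least-squares fit left the median of all genes off 0. Both are given. The labels do not say that animals of 1 number share a litter or day. Mice of 1 group differed by more than sampling noise, with a chi-square per gene of 42.1 and 11.1. Only the limma fit, plain and with the robust correction, was run on simulated data. The simulated spread was the same for all genes, so it says nothing of the spread between these mice.

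Members and lists were chosen with earlier results of these data known. Named beside the members were fixed subunits and enzymes, and per list up to 3 lower and 3 higher genes of largest log2 fold change with a mean of at least 50. Some genes of these lists are not reported here.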

Additional observations from a re-analysis of the deposited data

How the results depend on the processing

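With 2 mice per group, single mice weigh heavily. Of the alternative values for the members, 99 differed from the reported one by less than the spread between mice, 19 by more, and 17 had the other sign. Part of the 99 was fixed in advance. Other filters on the mean and the replicate block cannot move a member's log2 fold change, and leaving out 1 mouse cannot move it by more than that spread. The correction for GC content and length depends on its loess. By least squares, the version run first, it gave 2.22 for *Nox1*, 0.42 for *Noxo1*, 0.46 for *Noxa1*, 0.16 for *Cyba*, 0.36 for *Duox2*, 0.40 for *Duoxa2*, -0.34 for *Nos2* and -0.074 for *Gpx2*, with the median of all genes at 0.24. The robust version, chosen after seeing the data and those values, gave 2.002, 0.10, 0.18, -0.040, -0.011, 0.12, -0.65 and -0.31 in the same order, with a median of -0.032. Library total scaling, which lowers the median of all genes by 0.22, gave 2.47 for *Nox1*, -0.84 for *Noxa1*, -0.69 for *Duox2* and -0.57 for *Duoxa2*, and scaling to the epithelial markers, chosen after seeing the data, gave 2.78 for *Nox1*. The direction of *Nox1* held under every alternative run.

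With each mouse left out in turn, assuming that the lone mouse varies like the others, log2 fold changes lay between 2.62 and 2.77 for *Nox1*, -0.90 and 0.021 for *Noxo1*, -0.75 and -0.48 for *Noxa1*, -1.59 and -0.89 for *Cyba*, -0.58 and -0.35 for *Duox2*, -0.47 and -0.21 for *Duoxa2*, -1.55 and -0.63 for *Nos2* and -0.94 and -0.52 for *Gpx2*. Without Bmal1 cKO mouse 1, *Noxo1* was at 0.021. Over all genes 2205 to 2852 were then lower and 2654 to 3154 higher, and over the pathway lists 14 to 26 lower and 9 to 12 higher, against 3871, 4059, 30 and 12 with all mice.

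After the robust correction 2395 genes were lower and 2369 higher, with 18 lower and 14 higher pathway genes, and after the least-squares correction 1568 and 3992, with 13 and 22. With the replicate block as well, 2050 genes were lower and 2047 higher, with 18 lower and 10 higher pathway genes (robust), or 1632 lower and 3877 higher, with 13 and 22 (least squares). The corrected log2 fold changes of the members were the same with the block, which cannot move them when each group has 2 mice. The replicate block alone, which takes the mouse number as a pairing, gave 3789 lower and 3899 higher genes and 28 lower pathway genes. Members called lower numbered 6 with the block alone, and members called higher numbered 2 with the block and the least-squares correction. As above, nothing is read from counts of members. The differences between mice 1 and 2 correlated at -0.091 between the groups, so the numbers were not taken as pairs. Library total scaling called 4885 genes lower and 3091 higher. The causes of these changes were not tested.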
